A study of Rattus norvegicus with 32 samples.

Results

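Of 32 arrays in the series, 6 are labelled pituitary gland, and 3 of these, *Csf1r*-/- (KO) 2, *Csf1r*+/- (HET) 1 and HET 2, carried transcripts of the olfactory mucosa. The 3 arrays were chosen by that signal, with *Cyp2g1*, a cytochrome P450 of the olfactory mucosa, as the marker. They are described here against the remaining 3 arrays with this label, *Csf1r*+/+ (WT) 1, WT 2 and KO 1, called the reference arrays below. All 6 arrays came from adult female DA/SD rats, a different rat for each array, with 2 rats per genotype. The mutation puts an EGFP and neomycin cassette into the first coding exon of *Csf1r*, the receptor through which CSF1 and IL-34 maintain macrophages, and the colony goes back to a single clone of embryonic stem cells. The rats were not perfused, and the brain regions were snap frozen after dissection. The KO arrays fell on both sides, the HET arrays were both among the chosen arrays, and the WT arrays were both among the reference arrays.

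The olfactory mucosa lines the back of the nasal cavity. Its sensory neurons carry odorant receptors and send their axons through the bone of the cribriform plate into the olfactory bulb, which lies directly above. Sustentacular cells support the neurons and, together with Bowman's glands, make enzymes that metabolize inhaled compounds, while the glands secrete mucus and small carrier proteins. The axons reach the bulb with sheaths of olfactory ensheathing glia and meninges around them.

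The tissue on these arrays did not match the label. Genes of olfactory bulb neurons were high on all 6, and *Th*, the enzyme that limits dopamine synthesis, had a log2 intensity of 9.69 on KO 2, 9.98 on HET 1 and 9.56 on HET 2 against 9.73 on WT 1, 10.22 on WT 2 and 9.12 on KO 1. *Tbx21*, a transcription factor of mitral and tufted cells, lay between 6.13 and 6.81 on the 6 arrays and at most at 3.90 on the 18 arrays of other regions. The pituitary hormone *Gh1* stood at 5.23 to 7.37 here, and at 12.68 to 12.91 on the 6 arrays labelled olfactory bulbs. A free-text description attached to the 6 samples names yet another tissue, the striatum. The label is therefore kept only as a label.

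Sequences near the gene starts are shown first, because the genes that stood high on KO 2 include genes of olfactory sensory neurons and a transcription factor of theirs, *Ebf2*. Proteins of the Olf/EBF family, among them EBF2, bind a palindrome in rodent olfactory genes, written here as TCCCNNGGGA and reading the same on both strands. In RefSeq promoters of the rat build GRCr8, which run from 250 bases before to 50 bases after the gene start, 231 of 27457 (0.841%) held these letters. Of 173 genes at least 2-fold higher on KO 2, 139 had such a promoter and 4 held a match (2.88%). These 4 are given below with the match in capitals, each on the plus strand.
*Cnga2*, chrX:154741643-154741702: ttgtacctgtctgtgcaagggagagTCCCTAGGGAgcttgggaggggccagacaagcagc
*Acsm4*, chr1:183485152-183485211: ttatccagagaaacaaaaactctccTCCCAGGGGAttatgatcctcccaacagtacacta
*Sec14l3*, chr14:83168132-83168191: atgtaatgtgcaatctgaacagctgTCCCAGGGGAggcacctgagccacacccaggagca
*Wfdc2*, chr3:173706336-173706395: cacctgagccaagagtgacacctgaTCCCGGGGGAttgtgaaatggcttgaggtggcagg
A match describes the letters only, and binding or regulation by EBF2 was not tested. The 139 genes were picked for their level on KO 2, so their share with a match carries no test. Of the 4, only *Cnga2* is on the sensory neuron list used below, and *Acsm4* and *Sec14l3* are on that of sustentacular and gland enzymes. *Wfdc2*, which encodes a secreted protein of glands and airways and is included because its promoter held a match, had a log2 intensity of 8.57 on KO 2, 6.59 on HET 1 and 6.26 on HET 2 against 5.83 to 5.90 on the reference arrays. The matches started 82 to 114 bases before the gene start, at position -82 in *Acsm4*, -98 in *Cnga2*, -101 in *Sec14l3* and -114 in *Wfdc2*. None of the 112 measured odorant receptors with a promoter (0 of 112) held these letters in this window. With 0.841% over all promoters, that count cannot show a lack of matches.

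The 3 arrays differed from the reference arrays in number and in kind of genes. Over 10663 genes with at least 1 of 24 brain and pituitary arrays at an intensity of 20, 173 genes (1.62%) stood at least 2-fold above the highest reference array on KO 2, 48 (0.45%) on HET 1 and 47 (0.441%) on HET 2. Below the lowest reference array by at least 2-fold were 11 genes (0.103%) on KO 2, 6 (0.0563%) on HET 1 and 41 (0.385%) on HET 2. Since the arrays were chosen by genes in this contrast, these counts carry no test, and the 3 comparisons share their reference arrays. At least 16-fold higher were 17 genes on KO 2, 5 on HET 1 and 3 on HET 2.

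**Figure D1:**
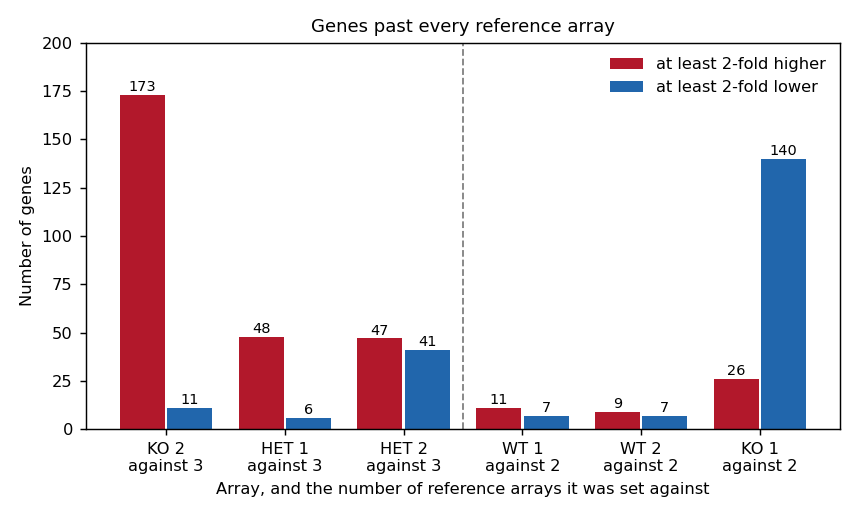
Genes at least 2-fold above (red) or below (blue) every reference array, for each array labelled pituitary gland. KO 2, HET 1 and HET 2 were set against 3 reference arrays and each reference array against the remaining 2. KO 2 had the most genes above (173) and KO 1 the most below (140).

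Each reference array was also set against the remaining 2, which is an easier mark to pass than 3. WT 1 had 11 genes higher and 7 lower, WT 2 had 9 and 7, and KO 1 had 26 and 140. Of 20 measured microglia genes, 18 were among the 140 lower on KO 1. With KO 1 among the reference arrays, a gene low on both KO arrays counts as lower on KO 2 only if it is at least 2-fold below KO 1 as well. Of the microglia genes 1, *Gpr34*, counted, and it lay under the intensity of 20 on both KO arrays. Of the genes higher on KO 2, the highest reference value lay under the intensity of 20 for 136 of 173, for 42 of 48 on HET 1 and for 32 of 47 on HET 2. For 75, 24 and 20 of them, respectively, no array outside these 3 reached 20, so that they entered the comparison only because they were high on these arrays.

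The gradient of the marker was steep. *Cyp2g1* had a log2 intensity of 11.10 on KO 2, 10.07 on HET 1 and 7.86 on HET 2, and 2.96 on WT 1, 2.73 on WT 2 and 2.69 on KO 1. On the deposited scale this was 2200 (KO 2), 1078 (HET 1), 232 (HET 2) and 6.47 to 7.80 (reference arrays), and the 18 arrays of other regions lay between 2.22 and 3.36 on the log2 scale. The 2 KO arrays thus differed by 8.41 and the 2 HET arrays by 2.21, within a genotype in each case. Measured above the mean of the reference arrays, HET 1 had 48.9% and HET 2 10.3% of the KO 2 intensity.

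*Vmo1*, which encodes a homolog of a bird egg membrane protein, was second on KO 2 and had 10.47 on KO 2, 8.71 on HET 1 and 5.54 on HET 2 against 2.54 to 2.74 on the reference arrays. *Aox2*, an aldehyde oxidase, had 8.22, 6.68 and 5.01 on the same arrays against 2.50 to 2.90. On the arrays labelled olfactory bulbs *Aox2* had 4.56 to 5.46, a range that includes its HET 2 value. *Hsd17b6*, a hydroxysteroid dehydrogenase, had 8.95, 6.05 and 4.60 against 2.00 to 2.41. These genes all kept the order of *Cyp2g1*. They were named for their excess on KO 2, and the arrays were chosen in that order, so the order is no result. The steps between arrays were not the same size, as *Hsd17b6* fell by 2.90 from KO 2 to HET 1 and *Cyp2g1* by 1.03.

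Enzymes of sustentacular cells and Bowman's glands formed the first of the lists. Of 20 listed genes 8 were measured, and 6 stood at least 2-fold above the reference arrays on KO 2, 4 on HET 1 and 2 on HET 2. Over all genes the shares were 1.62%, 0.45% and 0.441%, against which the counts of each list below can be read. The lipid-binding protein *Sec14l3* had 7.56, 5.75 and 4.83 against 1.85 to 2.40, and the flavin monooxygenase *Fmo2* had 8.21, 5.79 and 5.22 against 4.37 to 4.72. On the arrays labelled olfactory bulbs *Fmo2* had 4.91 to 7.70. The acyl-CoA synthetase *Acsm4*, whose promoter is shown above, had 5.38 and 4.31 on KO 2 and HET 1 but 2.88 on HET 2, just under the reference range of 3.02 to 3.14. *Fmo1* (10.05 on KO 2 against 9.21 to 9.99) and the glutathione transferase *Gsta1* (8.13 against 7.58 to 8.72) did not pass 2-fold on any of the 3 arrays. The median difference of the list from the reference mean was 2.05 on KO 2, 1.09 on HET 1 and 0.20 on HET 2. Over all genes it was -0.05, 0.00 and 0.00. Without a filter the list had 1.75, 0.62 and 0.20, and at an intensity of 50 it had 2.53, 0.61 and 0.21. The list includes the marker *Cyp2g1*, and *Cyp2g1* and *Acsm4* passed the intensity filter only through the chosen arrays.

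Secreted proteins of the nose formed the next list. Of 25 listed genes 11 were measured, and 7 were at least 2-fold higher on KO 2, 5 on HET 1 and 3 on HET 2. Over all genes the shares were 1.62%, 0.45% and 0.441%. Among the 7, at least *Bpifb3*, *Bpifb4* and *Aqp5* passed the intensity filter only through the chosen arrays, so these counts carry no test. The list medians were 4.21, 0.41 and 0.15 on KO 2, HET 1 and HET 2. These medians depended on which genes passed the filter on low values, being 0.25, 0.32 and 0.18 without a filter and 6.65, 4.06 and 1.013 at an intensity of 50. With a gene's probe sets averaged or with repeated quantile normalization, that of HET 1 was 1.29 and 1.28 and that of HET 2 was 0.46 and 0.44. The secretoglobin *Scgb1c1* had 10.77 on KO 2, 8.72 on HET 1 and 5.54 on HET 2 against 3.73 to 4.22. *Bpifb3*, of the BPI-fold family of airway secretions, had 10.36, 8.77 and 4.62 against 3.27 to 3.45. Its relative *Bpifb4* had 9.62 and 7.52 on KO 2 and HET 1, and its 2.23 on HET 2 was no higher than the reference arrays (2.41 to 2.65). HET 2 therefore carried *Cyp2g1* at an intensity of 232 without a *Bpifb4* signal.

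Gland and surface products differed in how far they fell from KO 2 to HET 1. The gel-forming mucin *Muc5b* had 9.30, 6.18 and 3.58 against 2.67 to 2.92, and the HET 1 excess over the reference mean was 10.5% of that on KO 2. The water channel *Aqp5* had 7.06, 5.04 and 3.62 against 2.39 to 3.48. *Bpifa1*, a secretion of upper airway epithelium, broke the order with 7.15 on KO 2, 2.90 on HET 1 and 4.24 on HET 2 against 2.32 to 2.66. On the arrays labelled olfactory bulbs *Bpifa1* had 4.79 to 5.90. The antimicrobial lectin *Reg3g* had 5.62 on KO 2 alone, with 2.42 on HET 1 and 2.21 on HET 2 against 2.31 to 2.65.

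**Figure D2:**
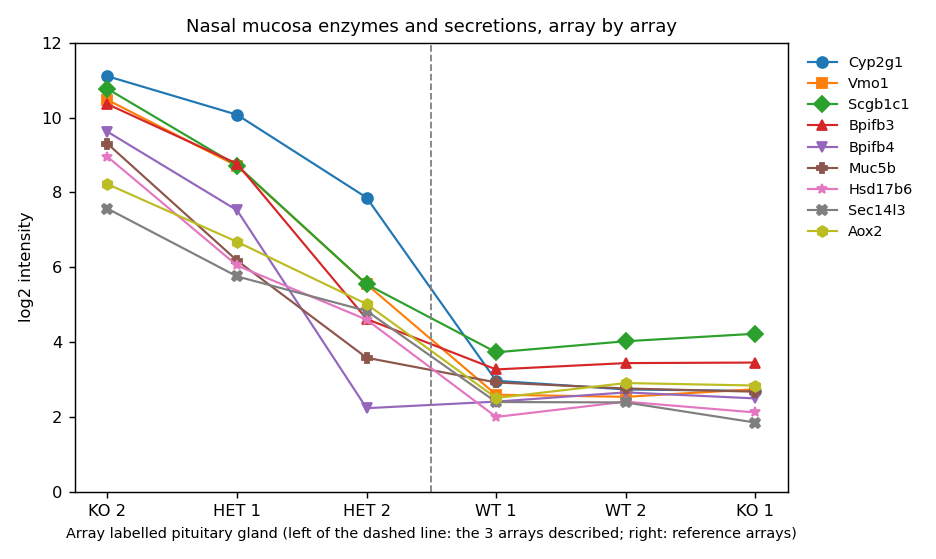
Log2 intensity of 9 genes of nasal enzymes and secretions on each array labelled pituitary gland, 1 point per gene and array, with reference arrays to the right of the dashed line. All 9 are highest on KO 2, for which most of these genes were chosen, and lower on HET 1 and HET 2. *Bpifb4* reaches the reference level on HET 2 (2.23).

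The gradient was not one factor applied to all genes. Among 83 genes at least 2-fold higher on KO 2 and with an intensity of 50 or more there, the HET 1 excess over the reference mean was a median 20.04% of the KO 2 excess (quartiles 7.36% and 28.6%), and that of HET 2 was 4.01% (quartiles 0.709% and 12.5%). These genes were picked for their level on KO 2, so the shares are a description. HET 1 had over 50% of the KO 2 excess in 4 genes and under 5% in 19. HET 2 had over 50% in 9 genes, over 100% in 5 and under 5% in 44. In the strict order KO 2 over HET 1 over HET 2 over every reference array stood 93 genes (0.872%), the order by which the arrays were chosen. Each of the 5 other orders of the 3 arrays above every reference array held for 29 to 56 genes, and the exact reverse, with HET 2 highest and KO 2 lowest, for 43.

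Genes of the sensory neurons themselves were graded less clearly, and 2 of the reference arrays carried them as well. *Omp*, the olfactory marker protein of mature sensory neurons, had 9.48 on KO 2, 8.97 on HET 1 and 8.20 on HET 2, and 9.32 on WT 1, 9.15 on WT 2 and 6.54 on KO 1. The arrays overlapped, and KO 1 was the lowest of the 6. *Cnga2*, the cyclic nucleotide-gated channel that the odorant signal opens, had 6.98, 5.76 and 4.86 against 5.24 on WT 1, 4.88 on WT 2 and 3.44 on KO 1, and only KO 2 passed 2-fold. *Rtp1*, which brings odorant receptors to the cell surface, had 6.34, 5.51 and 4.85 against 4.08 to 4.73. *Cnga4*, a further channel subunit, had 4.41, 3.87 and 2.82 against 2.36 to 2.59 and passed on KO 2 and HET 1. *Gng13* and *Adcy3*, a G protein subunit and the cyclase of the same cascade, were lowest on KO 1 (5.71 and 6.25) and passed 2-fold on none of the 3 arrays.

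Over this list, 9 of 20 genes were measured, and 3 passed on KO 2, 2 on HET 1 and 0 on HET 2, with medians of 0.88, 0.77 and 0.34. The same median was 0.46 on WT 1, 0.11 on WT 2 and -0.57 on KO 1. Without KO 1 among the reference arrays it was 0.56 on KO 2, 0.70 on HET 1 and 0.03 on HET 2, and at an intensity filter of 50 it was -0.13 on HET 2. *Kirrel2*, an adhesion protein on sensory axons, had its highest value on HET 1, with 5.60, against 4.09 on KO 2, 4.62 on HET 2 and 4.06 to 4.41 on the reference arrays. Of 11 measured genes of progenitors and immature neurons, 2 passed on KO 2 and 0 on HET 1 and HET 2. These were *Ebf2*, the transcription factor named above, with 6.07 on KO 2, 4.74 on HET 1 and 3.03 on HET 2 against 3.31 to 3.995, and *Krt14*, a keratin of basal cells, with 4.67, 4.35 and 3.59 against 2.94 to 3.51.

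Odorant receptors, of which each sensory neuron uses a single gene, had 138 members past the intensity filter, 40 of them only through these 3 arrays. Of the 138, 36 stood at least 2-fold above the reference arrays on KO 2, 8 on HET 1 and 6 on HET 2, and 0, 1 and 1 stood below. Probe sets of this large family can share sequence, so the assignment to single receptors is uncertain. *Or4k49* reached 4.97 on HET 1 against 2.16 on KO 2, 1.11 on HET 2 and 0.99 to 1.56 on the reference arrays, and was chosen as the receptor with the largest excess of HET 1 over KO 2. *Or2l13* had 5.43 on KO 2 and 5.40 on HET 1 but 2.93 on HET 2, against 2.64 to 3.12.

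Among these 3 arrays, genes of epithelial junctions passed on KO 2 alone. Of 14 measured genes of junctions and keratins, 5 passed on KO 2, 0 on HET 1 and 0 on HET 2, where 2, *Cdh1* (4.23 against 5.75 to 6.42) and *Krt19* (2.38 against 3.54 to 4.33), stood at least 2-fold below. *Epcam*, an adhesion protein of epithelia, had 6.0025 on KO 2, 3.63 on HET 1 and 3.31 on HET 2 against 2.46 to 3.10. The tight junction proteins *Cldn3* (6.07 on KO 2 against 3.80 to 4.32) and *Cldn4* (4.65 against 2.76 to 2.82) stood with it. So did the protease *Tmprss2* (5.08 against 2.75 to 3.29). On the arrays labelled olfactory bulbs, *Epcam* had 9.47 to 9.86, *Cldn3* 8.08 to 8.83 and *Cldn4* 7.29 to 8.85. Of 11 measured genes of multiciliated cells, only *Rsph4a*, a part of the ciliary radial spoke, passed, with 5.64 on KO 2 against 3.15 to 3.63. Of 4 measured genes of bone marrow granulocytes, 1 passed on KO 2, *Defa5* at 4.58 (1.97 to 2.88 on the reference arrays). It passed the intensity filter only through KO 2. Of 6 measured genes of B and plasma cells, 1 passed on KO 2, *Jchain* at 5.37 (3.73 to 4.01). None of either list passed on HET 1 and HET 2. The list medians on KO 2 were 0.51 for granulocytes and -0.29 for B and plasma cells.

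The genes with the largest excess on HET 2 over the reference arrays and over HET 1 included genes of matrix proteins and proteases of bone and tendon, and since they were chosen by those differences, their order over the 3 arrays is no result. *Tnn* (tenascin-W), a matrix protein of bone and its surrounding membrane, had 7.35 on HET 2, 3.61 on KO 2 and 2.84 on HET 1 against 2.99 to 3.30. *Mmp13*, a collagenase of bone and cartilage, had 8.53 on HET 2, 7.65 on KO 2 and 4.41 on HET 1 against 2.40 to 2.86. *Aspn*, a small proteoglycan, had 7.97 on HET 2, 5.70 on KO 2 and 4.55 on HET 1 against 3.79 to 4.57.

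Of the chains of type I collagen, *Col1a1* passed 2-fold on all 3 arrays, with 8.79 on KO 2, 8.73 on HET 1 and 10.69 on HET 2, the reference arrays lying at 6.88 to 7.58. *Col1a2* passed on HET 2 alone, with 8.28, 7.85 and 9.82 against 6.78 to 7.62. *Postn* (periostin) had 9.24 on HET 2, whereas its 6.80 on KO 2 lay just above and its 5.93 on HET 1 within the reference range, which ran from 3.34 on KO 1 to 6.39 on WT 1. *Ibsp* (bone sialoprotein) had 5.59, 5.33 and 6.64 on KO 2, HET 1 and HET 2 against 2.54 to 3.72, and *Bglap* (osteocalcin) had 6.67, 5.71 and 6.51 against 3.78 to 3.98. Of 12 measured genes of cartilage and bone, 4 passed on KO 2, 3 on HET 1 and 4 on HET 2, and the median of the list was 0.93, 0.49 and 0.63. Without a filter it was 0.49, 0.34 and 0.43, and at an intensity of 50 it was 1.17, 0.66 and 1.74, so the order of KO 2 and HET 2 depended on the filter. The cartilage collagen *Col2a1* (3.26 to 3.88 on the 6 arrays) and *Acan* (6.82 to 7.44) passed on none.

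Of the osteoclast list, the proteases *Mmp9* and *Ctsk* and also *Itgb3* passed 2-fold on HET 2 only. *Mmp9* had 6.86 on HET 2, 3.60 on KO 2 and 4.50 on HET 1 against 3.79 to 4.04, and *Ctsk*, the collagen-degrading cathepsin K, had 9.004, 7.43 and 7.41 against 6.70 to 7.23. *Itgb3* had 4.40 on HET 2 against 2.85 to 3.37. With it, 3 of 6 measured osteoclast genes passed on HET 2, and 0 on KO 2 and HET 1. The rest of the list lay within the reference range on HET 2. *Calcr* had 2.32 (2.24 to 2.47), *Oscar* 3.52 (3.42 to 3.71) and *Tnfrsf11a* 5.58 (5.54 to 6.06). *Thbs4*, a thrombospondin of tendon and muscle attachment, was among the 10 largest on both HET 1 and HET 2, and its level on KO 2, HET 1 and HET 2 was about the same, 7.76, 7.57 and 7.60 against 3.31 to 3.71. Of 7 measured muscle genes 2 passed on HET 2, *Ckm* (4.98 against 3.68 to 3.92) and *Tnnt3* (4.92 against 3.19 to 3.78), while *Des* (desmin) lay under the reference arrays there, with 3.89 against 4.80 to 5.24.

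**Figure D3:**
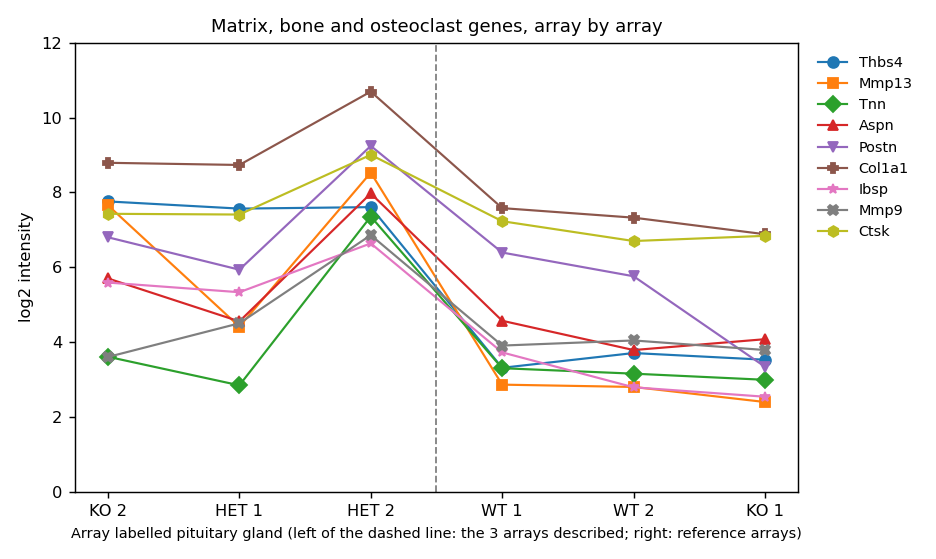
Log2 intensity of 9 genes of matrix, bone and osteoclasts on each array labelled pituitary gland, 1 point per gene and array, with reference arrays to the right of the dashed line. *Tnn* reaches 7.35 on HET 2, for which most of these genes were chosen, while *Thbs4* lies between 7.57 and 7.76 on KO 2, HET 1 and HET 2.

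With all 3 reference arrays, more genes stood below them on HET 2 than on KO 2 or HET 1. This ranking rested on KO 1, since against the WT arrays alone the counts were 124 on KO 2, 10 on HET 1 and 102 on HET 2. *Osr1*, a transcription factor of meningeal and mesenchymal cells, had 6.46 on HET 2, 8.07 on HET 1 and 9.10 on KO 2 against 8.75 to 8.93. *Scn7a*, a sodium channel, had 4.96 on HET 2, 6.24 on HET 1 and 7.60 on KO 2, where the reference arrays had 6.84 to 7.09, and the potassium channel *Kcnj13* had 5.12 on HET 2, 6.11 on HET 1 and 8.11 on KO 2 against 6.80 to 7.67. These 3 genes were chosen for their low values on HET 2. The fibroblast list had 5 genes at least 2-fold higher and 1 lower on HET 2, and its median was -0.29 there and 0.75 on KO 2. *Ccl2*, a chemokine, had 5.98 on HET 2, 6.99 on KO 2 and 7.53 on HET 1 against 7.79 to 8.21.

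Of 10 measured genes of the anterior pituitary, 2 passed 2-fold on HET 2, *Prl* and *Cga*. *Prl* (prolactin) had 9.64 on HET 2, 5.96 on KO 2 and 6.65 on HET 1 against 7.63 to 8.33, so that HET 2 lay above and KO 2 and HET 1 below the reference arrays. *Gh1* did not pass, with 7.37 on HET 2, 5.23 on KO 2 and 5.27 on HET 1 against 6.15 to 6.51, and *Lhb*, the beta subunit of luteinizing hormone, had 4.17 on HET 2 against 4.31 to 4.33. *Cga*, the subunit shared by the glycoprotein hormones, had 6.26, 4.54 and 4.53 on HET 2, KO 2 and HET 1 against 4.96 to 5.24. On the arrays labelled olfactory bulbs *Prl* had 12.07 to 12.18.

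On KO 2, *Prl* was among the largest falls, with *Npas4*, an activity-induced transcription factor of neurons (5.32 against 6.64 to 7.88). So were *Akr1b10*, an aldo-keto reductase (6.55 against 7.66 to 8.41), and *Gpr34*, a receptor of microglia (1.77 against 2.91 to 7.52). The 2.91 of *Gpr34* was that of KO 1, and both KO arrays lay under the intensity of 20 for this gene. *Ttr*, the thyroid hormone carrier made by the choroid plexus, had 4.20 on KO 2, 3.72 on HET 1 and 4.39 on HET 2. Among the reference arrays it ranged from 5.50 on WT 1 and 5.51 on KO 1 to 9.06 on WT 2. Among the genes lower on KO 2 were also *Ccl5*, a T cell chemokine, at 4.20 against 5.31 to 5.94 and *Prf1* (perforin) at 1.96 against 3.27 to 3.82, the latter under the intensity of 20 on all 6 arrays. On HET 1 the 6 falls included *Cp* (ceruloplasmin), with 6.59 against 7.63 to 8.08, and *Sostdc1*, with 4.29 against 5.34 to 5.55.

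**Figure D4:**
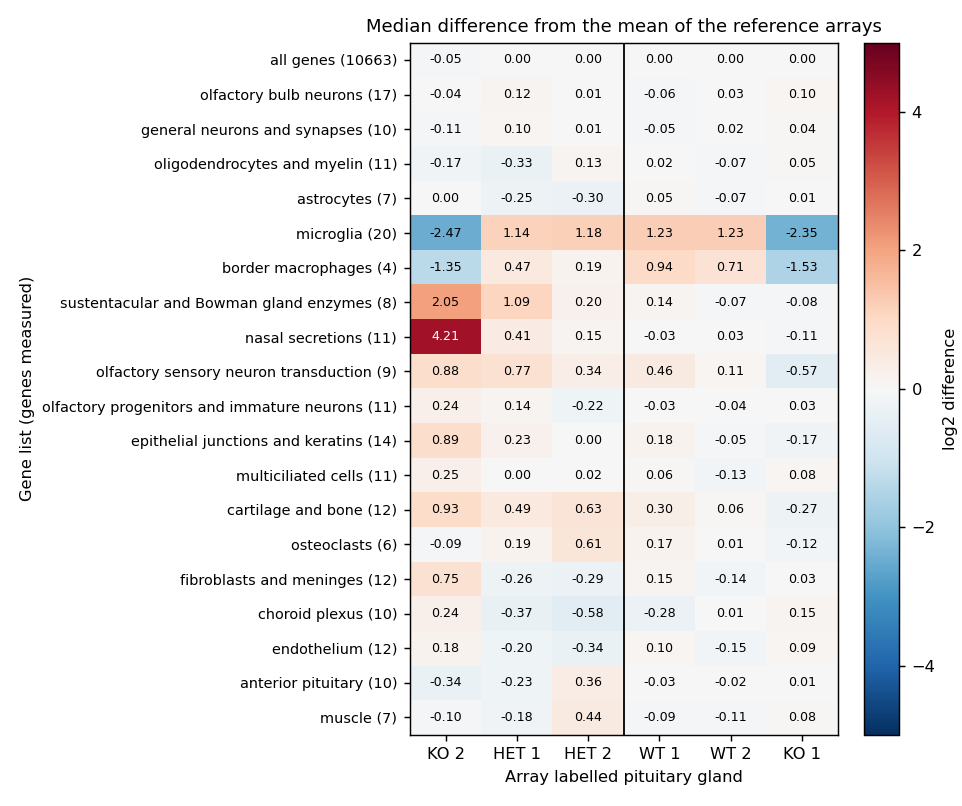
Median log2 difference of 19 gene lists and of all genes from the mean of the reference arrays, for each array labelled pituitary gland, with the number of genes measured in parentheses. Nasal secretions have a median of 4.21 on KO 2, which is 0.25 without the intensity filter, and the lists of bulb neurons and synapses lie between -0.11 and 0.12 on the 6 arrays.

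Neurons of the bulb did not follow the gradient. Of 17 measured genes of olfactory bulb neurons and 10 of neurons and synapses in general, 0 stood at least 2-fold above or below the reference arrays on KO 2, HET 1 or HET 2. The bulb median was -0.04 on KO 2, 0.12 on HET 1 and 0.01 on HET 2. *Calb2*, a calcium-binding protein of bulb interneurons, had 10.31, 10.25 and 10.03 against 10.10 to 10.41, and *Cdhr1*, a cadherin of mitral cells, had 10.64, 10.80 and 10.46 against 10.54 to 10.94. The largest departure of the list was that of the dopamine transporter *Slc6a3*, with 4.40 on HET 2 against 5.21 to 5.82. Of 11 oligodendrocyte and 7 astrocyte genes, 0 passed 2-fold on any of the 3 arrays.

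The genes of microglia, which depend on CSF1R, were not used to choose the arrays and were tested by genotype. *Csf1r* itself had 2.91 on KO 2 and 3.15 on KO 1, 8.38 on HET 1 and 8.62 on HET 2, and 9.12 on WT 1 and 8.85 on WT 2, and the KO arrays did not overlap the others. In a limma fit over 24 arrays in 12 groups, with Benjamini-Hochberg adjustment over 10663 genes, it was lower in KO than in WT by 5.96 ± 0.20 (log2, SE; adjusted p = 4.94e-11, n = 2 per group). Without KO 2 the fitted log2 difference was -5.84, and without KO 1 it was -6.08. *Cx3cr1*, the fractalkine receptor of microglia, had 3.18 on KO 2 and 3.33 on KO 1 against 9.11 on WT 1 and 9.25 on WT 2, and *P2ry12*, a purine receptor, had 3.57 and 2.78 against 7.75 and 7.47. In *Csf1r*, *Cx3cr1* and *P2ry12*, KO 2, which carried the most mucosa transcripts, was thus as low as KO 1 to within 0.79 or less. Other microglia genes differed more, in either direction. *Tmem119* had 4.37 on KO 2 and 3.27 on KO 1, and *Gpr34* had 1.77 and 2.91.

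Of 20 measured microglia genes, 18 were lower in KO than in WT at an adjusted p under 0.05 (limma), with a median of -3.67. The exceptions were *Sall1* and *Olfml3*. Without KO 2, 18 were still lower (median -3.53), and without KO 1, 17 (median -3.72). All 4 measured genes of border macrophages were lower too, among them *Lyve1* by 2.61 ± 0.30 (adjusted p = 7.64e-05) and *F13a1* by 2.70 ± 0.26 (adjusted p = 9.57e-06, limma). In these tissue arrays, fewer cells and less RNA per cell cannot be told apart.

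**Figure D5:**
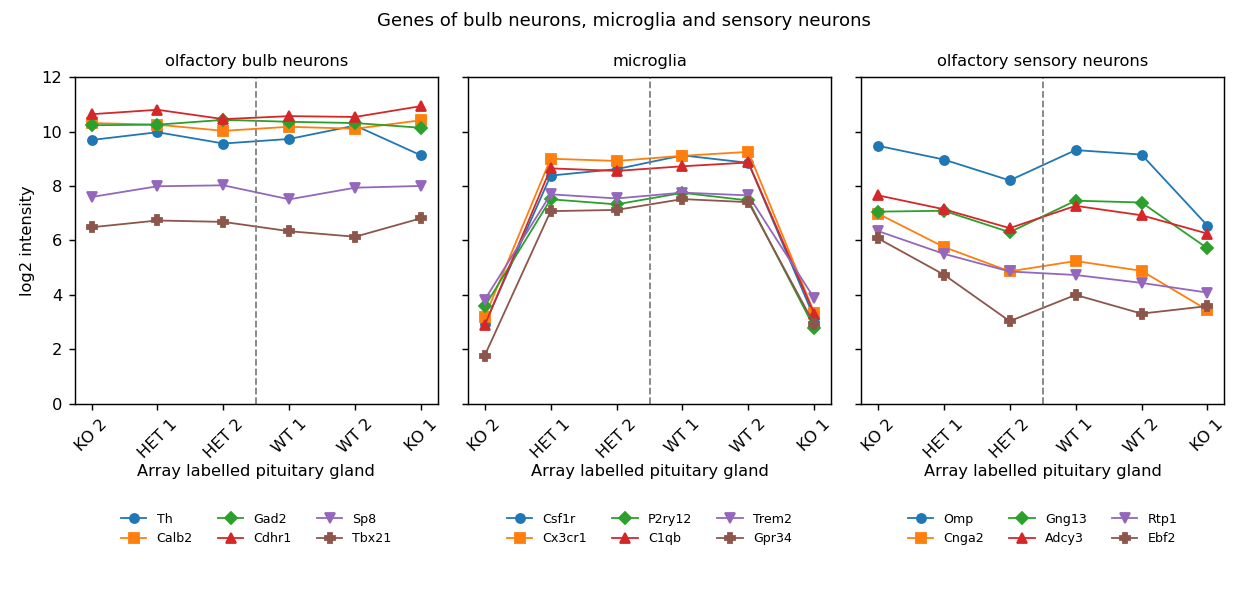
Log2 intensity of 6 genes each of bulb neurons, microglia and olfactory sensory neurons on the arrays labelled pituitary gland, 1 point per gene and array. Microglial genes are low on both KO arrays (*Csf1r* at 2.91 and 3.15), and *Omp* is lowest on KO 1 (6.54).

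Which KO or HET array was used changed what the comparison of genotypes called. Over all genes, limma called 1 gene (0.00938%) higher and 99 (0.928%) lower in KO than in WT. The single gene higher was *Cldn9*, a tight junction protein named here after its values had been seen, with 5.98 on KO 2 and 5.27 on KO 1 against 4.16 and 4.59 on the WT arrays (log2 difference 1.25 ± 0.28, adjusted p = 0.046, limma). This call was lost, with 0 genes higher, under the replicate block, with repeated quantile normalization, without WT 1 and without WT 2. With KO 2 as the sole KO array the count of genes higher was 130, and with KO 1 as the sole KO array it was 4. For HET against WT, genotype cannot be told apart from mucosa transcripts, as both HET arrays were chosen and both WT arrays were reference arrays. Between HET and WT, limma called 0 genes higher (0%) and 0 lower (0%). At an unadjusted p under 0.05 limma gave 90 and 347. Even *Cyp2g1* was not called, at 10.07 on HET 1 and 7.86 on HET 2 against 2.96 on WT 1 and 2.73 on WT 2. The methods' t-test gave 287 higher and 377 lower at its unadjusted threshold, and 0 in each direction after Benjamini-Hochberg adjustment. With HET 2 as the sole HET array, 2 genes were called higher and 6 lower, and with HET 1 as the sole HET array, 1 and 0. The SD over genes of the log2 difference between the 2 arrays of a genotype was largest for the KO pair. It was 0.509 for KO, 0.358 for HET and 0.282 for WT. The part of mucosa transcripts in these counts and in this spread was not tested.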

How the data were processed

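RNA was extracted with TRIzol and RNeasy columns and hybridized to Affymetrix Rat Gene 2.1 ST arrays. The authors ran RMA (version not given in the sources used here) and deposited linear-scale intensities, without a logarithm, for 36685 probe sets. The 24 brain and pituitary arrays shared 8 to 132 exact values with each other and at most 1 with the remaining 8 arrays, and so were analysed alone, on the log2 scale. By the platform annotation, 14824 probe sets had a single symbol, 829 had more than one and 21032 had none. Symbols were updated through RefSeq (GRCr8) where the Entrez identifier was found (14670 probe sets). Where a gene had more than one probe set, the brightest on average stood for it. Genes with at least 1 of 24 arrays at an intensity of 20 were kept (10663).

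KO 2, HET 1 and HET 2 were each set against the highest and the lowest of the reference arrays, with no test, at 2-fold. Genotypes were compared with limma 3.58.1 in R 4.3.3 over 12 groups (adjusted p under 0.05), which was tested on simulated data. n is 2 rats per group, and the number of arrays limits the precision. RMA leaves a background of several intensity units, so folds of genes near it are compressed. Tables were handled with pandas 2.3.3 in Python 3.11.15, and figures drawn with matplotlib 3.10.9.

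Named genes were the 10 largest above the reference arrays on each array, the 10 largest falls on KO 2 and 5 on HET 1 and HET 2, the 10 with the largest excess of HET 1 over KO 2, the 5 with the largest excess of HET 2 over HET 1, and members of the gene lists. Not all of these are named. The arrays, members and lists were chosen with earlier results of these data known. Alternatives were other filters, the mean of all probe sets, repeated quantile normalization, each array left out, the mean of the reference arrays, 4-fold, limma with trend and robust variance, a replicate block, the 6 arrays alone and the methods' t-test.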

Additional observations from a re-analysis of the deposited data

Results flagged for a closer look

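Probe sets with no gene symbol, which enter none of the comparisons above, also stood above the reference arrays. Of 12493 that passed the intensity filter, 193 were at least 2-fold above the highest reference array on KO 2, 79 on HET 1 and 73 on HET 2, and 56, 122 and 81 were at least 2-fold below the lowest. The largest excess was 6.75 (log2) on KO 2, 5.80 on HET 1 and 2.88 on HET 2. They were set apart because the signal lies in data outside the named genes, and their identity was not tested.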

How the results depend on the processing

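Each of KO 2, HET 1 and HET 2 is 1 array of 1 rat, and most of the genes higher on them were near background elsewhere, so counts depended on the filter and the threshold. At an intensity filter of 50, 106 genes were higher on KO 2 and 61 stood in the order of the gradient, which without a filter held 149. At 4-fold, 87 genes were higher and 0 lower on KO 2, 18 and 0 on HET 1, and 17 and 1 on HET 2. Against the mean of the reference arrays, 114 genes were lower on KO 2, 97 higher and 34 lower on HET 1, and 82 higher and 107 lower on HET 2. With 1 reference array left out, genes higher ranged from 191 to 196 on KO 2, 51 to 60 on HET 1 and 52 to 55 on HET 2, and genes in the order from 123 to 178 (151 without WT 1, 178 without KO 1). Genes lower ranged from 16 to 124 on KO 2 (19 without WT 2, 124 without KO 1), 10 to 22 on HET 1 (10 without WT 1 or KO 1, 22 without WT 2) and 47 to 102 on HET 2 (75 without WT 2, 102 without KO 1).

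Genes higher in KO than in WT by limma numbered 2 without a filter, with trend and robust variance and in the 6 arrays alone, and 0 with repeated quantile normalization. With 1 array left out, where a lone array is assumed to vary like the other groups, they ranged from 0 (without WT 1 or WT 2) to 130 (without KO 1), with 4 without KO 2, and genes lower from 67 to 83. Genes higher in HET ranged from 0 to 2 (1 without HET 2, 2 without HET 1) and genes lower from 0 to 6 (1 without WT 1, 6 without HET 1). The methods' t-test gave 300 genes higher and 597 lower in KO at its unadjusted threshold and 0 in both directions after adjustment, and 287 and 377 in HET before it. *Csf1r*, *P2ry12*, *Cx3cr1* and *C1qb* kept their direction in KO in every alternative run and passed the threshold in all but the adjusted t-test. With the replicate block, 0 genes were higher and 100 lower in KO and 0 in HET. The numbers were not taken to pair the rats. Deviations of same-numbered pituitary-labelled arrays correlated at -0.05 between KO and WT, 0.00 between HET and WT and -0.19 between HET and KO. Over the 66 pairs of groups from all regions, the correlations ran from -0.27 to 0.45. Causes of these shifts were not tested.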
